A study of Homo sapiens with 26 samples.

Results

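KISS1, the gene of the secreted peptide kisspeptin, was followed as 1 row among the 33562 gene rows of an RNA sequencing table from 26 libraries. It was selected on its measured level, which differed between the lines of the study and between sets of libraries, so its own levels and differences are given as a description, with no test. The libraries came from 9 lines of MDA-MB-231Luc, a luciferase-labelled form of MDA-MB-231, a human breast cancer line without hormone receptors. The study set out to relate where AURKA (Aurora-A, a mitotic kinase) sits in the cell to the spread of these cells in xenografts.

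The NLS-AURKA clones c2 and c3 are labelled with AURKA cDNA carrying a nuclear localization signal, the cDNA label MUT1 and the guide sgAURKA1. The NES-AURKA clones c1 and c2, with a nuclear export signal, and the WT-AURKA clones c1 and c2, with neither signal, are labelled MUT2 and sgAURKA2. The control lines NLS-Empty, NES-Empty and Empty carry no AURKA cDNA and the guide sgCon. Every line carries the vector label pLUTZ mRFP and was kept in 0.1 to 1 mg/ml doxycycline, which drives the cDNA from an rtTA-responsive promoter. AURKA clones were at passages 32 to 35 and control lines at passages 19 to 20. There are 2 libraries of WT-AURKA c2 and 3 of every other line. Each AURKA line is named as a clone, and its guide, cDNA, passage and clonal origin cannot be told apart. The nuclear signal cannot be told apart from the label MUT1 and the guide sgAURKA1.

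Kisspeptin is made as a precursor that convertases cut and that is amidated at its end, and it acts through the Gq-coupled receptor KISS1R. KISS1 was found as a metastasis suppressor gene in human melanoma, its placental form circulates in pregnancy, and in hypothalamic neurons it drives the release of gonadotropin-releasing hormone. Matrix metalloproteinases can cut and inactivate the peptide, and in cancer cells SP1, AP-2 and the coactivator subunit MED23 are described as regulators of the gene.

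The stretch before the transcription start is shown because it is where motifs of those regulators were looked up. It holds the 250 bases upstream of KISS1, chr1:204196492-204196741 on the minus strand of GRCh38.p14, taken from RefSeq. Capitals mark, in order, a GC box, one end of a cAMP response element and a pair of overlapping TATA box matches.

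KISS1: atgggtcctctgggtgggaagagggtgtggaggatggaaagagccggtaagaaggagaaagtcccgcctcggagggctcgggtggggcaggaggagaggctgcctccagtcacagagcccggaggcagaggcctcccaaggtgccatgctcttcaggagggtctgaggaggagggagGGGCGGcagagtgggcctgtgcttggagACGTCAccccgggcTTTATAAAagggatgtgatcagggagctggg

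The protein-coding gene itself spans chr1:204190341-204196491 in that build, which is not the hg19 build of the deposited table. Both strands were searched, and matches are given by the distance of their first base from the start. GGGCGG, the GC box that SP1 binds, matched once at 73 bases, and 42.6% of 35116 promoter windows of the same length hold it. TATAAA, the TATA box, matched once on each strand, at 31 and 29 bases, and 10.7% of windows hold it. ACGTCA, one end of the cAMP response element, matched once at 45 bases, against 7.10% of windows. GCCNNNGGC, an AP-2 motif, had no match in this window and is held by 19.8% of windows.

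KISS1 was among the most abundant transcripts of the NLS-AURKA clones, above 99.0% to 99.7% of tested genes, whereas in control lines it stood above 3.73% to 66.2% of them. Its level is given in RPKM, read numbers scaled to transcript length and to the mapped total of the library. In NLS-AURKA c2 it was 129.6, 369 and 411 RPKM in libraries H, W and X. In NLS-AURKA c3 it was 148, 312.5 and 315.3 RPKM in libraries B, Y and Z. These 6 libraries lay above the other 20, and KISS1 ranked between 43rd and 124th of all gene rows in them. Over all genes, 2.6% of the 12589 that passed a filter of at least 1 RPKM in at least 2 libraries had every NLS-AURKA library above every other library.

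The clones with exported or untagged AURKA held intermediate levels. NES-AURKA c1 had 16.4, 52.6 and 59.2 RPKM in libraries F, S and T. NES-AURKA c2 had 13.9, 10.5 and 12.03 RPKM in libraries A, U and V, all below those of NES-AURKA c1, a separation in either direction that 16.8% of tested genes showed between these clones. WT-AURKA c1 had 4.18, 46.7 and 58.0 RPKM in libraries D, O and P. WT-AURKA c2 had 47.3 and 44.1 RPKM in libraries Q and R. Library D thus stood far below the other WT-AURKA libraries, while the exported construct differed between its clones.

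Control lines held the lowest levels. NLS-Empty had 0.843, 7.38 and 9.09 RPKM in libraries G, M and N. NES-Empty had 0.593, 4.69 and 6.82 RPKM in libraries C, K and L. Empty had 0.277, 4.14 and 4.56 RPKM in libraries E, I and J. In all 3 control lines the first of the named libraries was several times lower than the others, and it was below 1 RPKM.

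**Figure D1:**
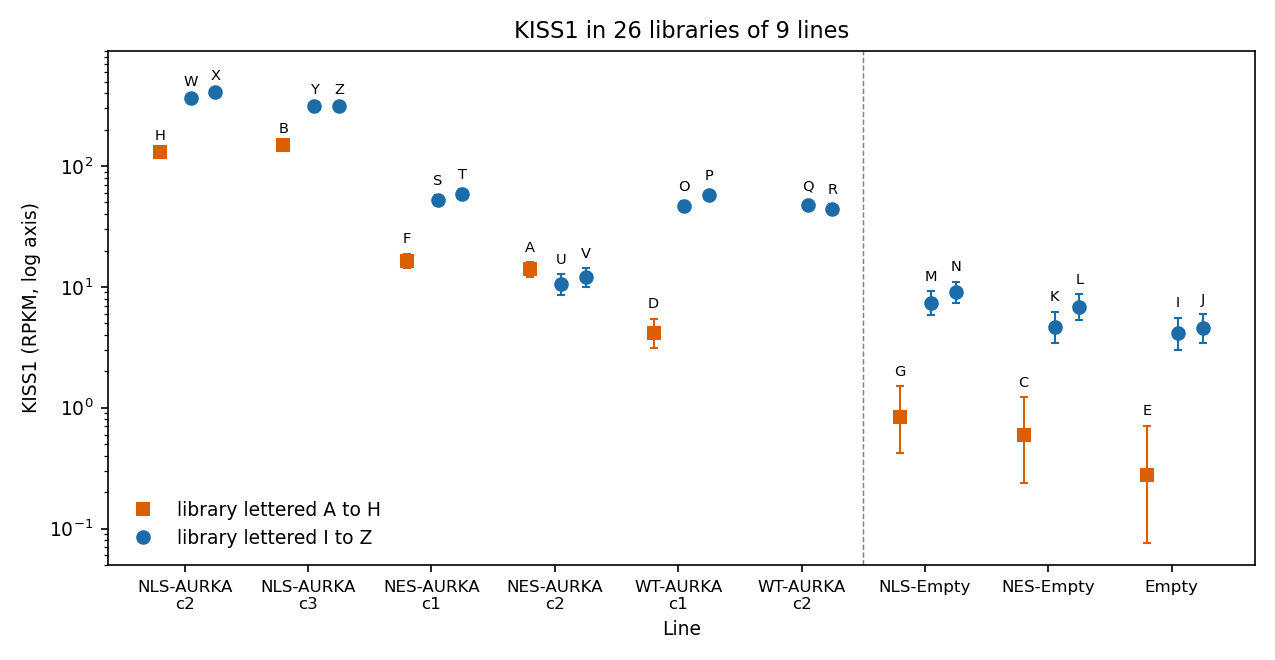
KISS1 in RPKM on a log axis for each of the 26 libraries, by line, with AURKA clones left of the dashed line and control lines right of it. Squares are libraries lettered A to H, circles those lettered I to Z, and bars are 95% Poisson intervals of the estimated reads; the NLS-AURKA libraries lie between 129.6 and 411 RPKM and the control libraries between 0.277 and 9.09 RPKM.

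The reads behind these values were estimated from what 1 read is worth in each library, with a transcript length of 709 bases for KISS1. Library E held 4 reads (exact Poisson 95% interval 1.09 to 10.2), library C held 7 (2.81 to 14.4) and library G held 11 (5.49 to 19.7). Library D held 54 (40.6 to 70.5). The other AURKA libraries held between 104 and 4227 estimated reads. These intervals cover counting error only, since the reads carry no molecular identifiers.

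Averaged over libraries, the lines ran from 303 ± 152 RPKM in NLS-AURKA c2 and 259 ± 95.8 RPKM in NLS-AURKA c3 to 2.99 ± 2.36 RPKM in Empty (SD, n = 3 each). Between them came WT-AURKA c2 at 45.7 ± 2.23 RPKM (SD, n = 2) and NES-AURKA c1 at 42.7 ± 23.0 RPKM (SD, n = 3). WT-AURKA c1 followed at 36.3 ± 28.4 RPKM, NES-AURKA c2 at 12.1 ± 1.73 RPKM, NLS-Empty at 5.77 ± 4.35 RPKM and NES-Empty at 4.03 ± 3.16 RPKM (SD, n = 3 each). In the order of mean log2(RPKM + 1) only 2 neighbouring pairs had library ranges that did not overlap. NLS-AURKA c3 exceeded WT-AURKA c2 by 2.39 on that scale, and NES-AURKA c2 exceeded NLS-Empty by 1.28. The other neighbours in the order overlapped.

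Much of that overlap lay between 2 sets of libraries that the titles letter A to H and I to Z. Among I to Z alone, with 2 libraries a line, overlaps remained only between NES-AURKA c1 and WT-AURKA c1, which differed by 0.10 in mean log2(RPKM + 1), and between WT-AURKA c1 and WT-AURKA c2, which differed by 0.19. NES-AURKA c1 and WT-AURKA c1 stood above NES-AURKA c2 there. NLS-AURKA c3 then exceeded NES-AURKA c1 by 2.47, and NES-AURKA c2 exceeded NLS-Empty by 0.41.

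Taken by construct with 1 mean per line, KISS1 was 281 ± 31.6 RPKM in NLS-AURKA, 27.4 ± 21.6 RPKM in NES-AURKA and 41.0 ± 6.63 RPKM in WT-AURKA (SD over lines, n = 2 each), against 4.26 ± 1.40 RPKM in control lines (SD, n = 3). On the log2(RPKM + 1) scale, AURKA lines exceeded control lines by 3.79, NLS-AURKA exceeded NES-AURKA by 3.53 and NLS-AURKA exceeded WT-AURKA by 2.93. NES-AURKA minus WT-AURKA was -0.59, less than the spread between the NES-AURKA clones, whose SD was 1.10 on that scale. In bulk RNA, fewer cells with the transcript and less of it per cell cannot be told apart.

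Single libraries separated most of these groups within a letter set. The 17 AURKA libraries and the 9 control libraries overlapped, because library D at 4.18 RPKM fell among the I to Z control libraries. Within I to Z the 12 AURKA libraries lay above the 6 control libraries, as 5.62% of tested genes did, and within A to H the 5 AURKA libraries lay above the 3 control libraries, as 12.9% of tested genes did. NLS-AURKA libraries lay above all NES-AURKA libraries, as did 6.05% of tested genes, and above all WT-AURKA libraries, as did 8.67%. NES-AURKA and WT-AURKA libraries overlapped. Because these contrasts were used to pick the gene, nothing is read from its place among those shares.

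Set against the control line with the same signal label, the size of the difference depended on the letter set. Within I to Z, NLS-AURKA c2 had 47.4 times and NLS-AURKA c3 38.1 times the RPKM of NLS-Empty, and within A to H the ratios were 153.7 and 175.5 against the 11 reads of library G. NES-AURKA c1 had 9.72 times the RPKM of NES-Empty within I to Z and 27.7 times within A to H. NES-AURKA c2 had only 1.96 times that of NES-Empty within I to Z but 23.5 times within A to H, where NES-Empty rests on 7 reads. WT-AURKA c1 had 12.04 times the RPKM of Empty within I to Z and 15.1 times within A to H, and WT-AURKA c2 had 10.5 times within I to Z. Every ratio was above 1, and NES-AURKA c2 within I to Z came closest to its control.

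**Figure D2:**
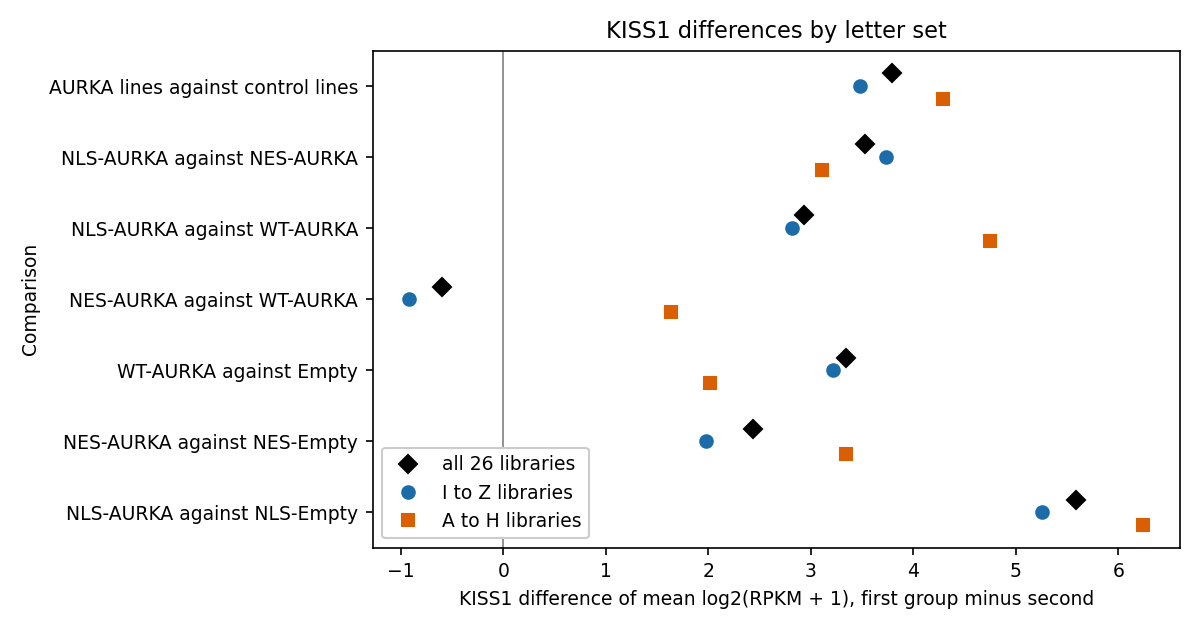
Differences of mean log2(RPKM + 1) of KISS1, first group minus second, for 7 comparisons. Diamonds use all 26 libraries, circles the I to Z libraries and squares the A to H libraries; only NES-AURKA against WT-AURKA crosses 0, at -0.92 in I to Z and 1.64 in A to H.

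KISS1 was among the genes that differed most between the letter sets in the direction of I to Z. I to Z libraries minus the A to H library of the same line averaged 1.74 on the log2(RPKM + 1) scale over 8 lines (SD 1.05), against a median of 0.09 over all tested genes, whose 5th and 95th percentiles were -0.88 and 0.92. KISS1 ranked 17th of 12589 for a difference toward I to Z, and 0.135% of genes had one at least as large in that direction. Counted in either direction, 105 genes or 0.834% had a mean difference at least as far from 0, most of them toward A to H. The difference was 1.58 in NLS-AURKA c2, 1.08 in NLS-AURKA c3, 1.71 in NES-AURKA c1 and 3.36 in WT-AURKA c1. It was 2.32 in NLS-Empty, 2.07 in NES-Empty and 2.07 in Empty. NES-AURKA c2 went the other way, at -0.29. In 7 of 8 lines both I to Z libraries lay above the A to H library, as happened in at least 7 lines for 32.4% of tested genes. The gene was picked with its difference between letter sets known, so nothing is read from its rank or its place among these shares.

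The labels do not say what the letters stand for. The A to H libraries held 22229 to 24418 gene rows above 0 and 174.6 to 561 RPKM of the nuclear RNA MALAT1, against 19157 to 20759 rows and 6.10 to 33.5 RPKM in I to Z. Estimated depth was 12200000 to 20300000 reads over all libraries, with a median of 18550000 in A to H and 14900000 in I to Z. The part of these differences in the KISS1 values was not tested. The 1 gene with the largest difference toward I to Z was TXNIP, at 3.81, a glucose-responsive inhibitor of thioredoxin that is also described as a regulator of KISS1 in melanoma. TXNIP was 1.74 to 16.2 RPKM in 7 of the A to H libraries, 37.1 RPKM in library A of NES-AURKA c2, and 44.2 to 189 RPKM in I to Z. Library A, the highest of its set for TXNIP, is also the one A to H library whose KISS1 was not below that of its line in I to Z, whereas library D, second at 16.2 RPKM, belongs to the line with the widest KISS1 difference.

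**Figure D3:**
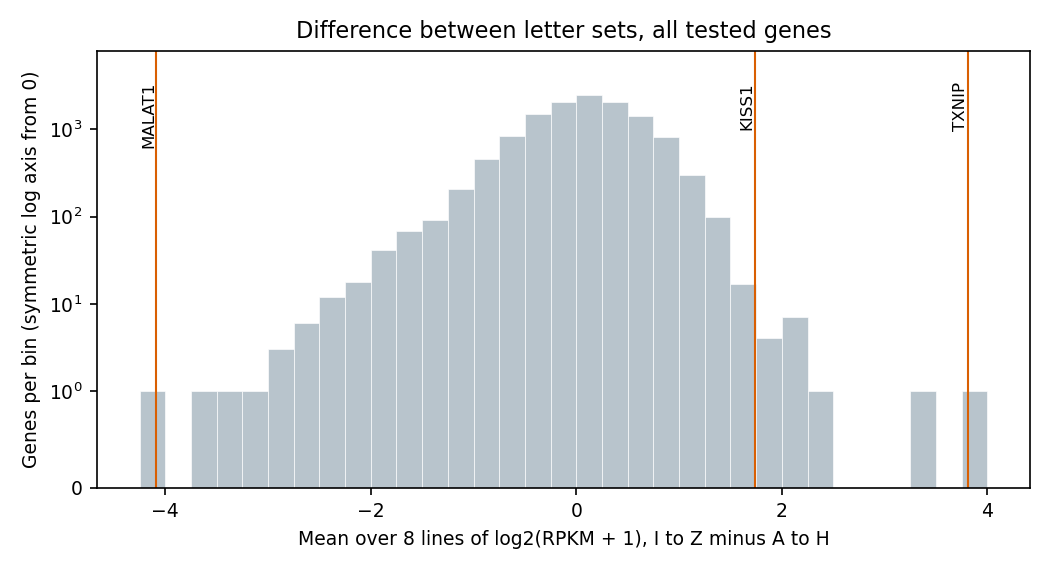
Mean over 8 lines of log2(RPKM + 1) in I to Z minus A to H libraries, as a histogram of the 12589 tested genes with the number of genes per bin on a symmetric log axis. Lines mark KISS1 at 1.74, TXNIP at 3.81 and MALAT1 at the far left; most genes lie between -0.88 and 0.92.

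AURKA itself did not follow KISS1 across the lines. AURKA averaged 66.5 and 51.9 RPKM in NLS-AURKA c2 and c3, 31.9 and 24.6 RPKM in NES-AURKA c1 and c2, and 37.0 and 13.5 RPKM in WT-AURKA c1 and c2, against 49.9 RPKM in NLS-Empty, 59.6 RPKM in NES-Empty and 61.6 RPKM in Empty. The mean of WT-AURKA c1 rests on library D, which held 84.1 RPKM of AURKA, while libraries O and P of that line held 14.1 and 12.8 RPKM and both libraries of WT-AURKA c2 held 12.7 and 14.3 RPKM. Library D, labelled WT-AURKA c1, thus stood apart from the other WT-AURKA libraries in AURKA, where it was higher, as in KISS1, where it was lower. Without it KISS1 in NLS-AURKA minus WT-AURKA was 2.37, and in NES-AURKA minus WT-AURKA -1.15, on the log2(RPKM + 1) scale. In means over libraries, control lines with little KISS1 held about as much AURKA transcript as the NLS-AURKA clones with much of it, but the order differed by letter set. Within A to H, NLS-AURKA libraries B and H held 76.5 and 56.5 RPKM of AURKA, against 34.0 to 51.8 RPKM in control libraries. Within I to Z, libraries X, Y and Z held 38.4, 38.8 and 40.3 RPKM and library W 104.6 RPKM, against 57.1 to 68.9 RPKM in control libraries. AURKA lines minus control lines was -0.86 on the log2 scale for AURKA (SE 0.39, limma adjusted p = 0.145), and within A to H it was 0.23 (adjusted p = 0.745). NLS-AURKA exceeded NES-AURKA by 1.01 (SE 0.26, adjusted p = 0.0167), a call lost within A to H (1.16, adjusted p = 0.0652) and with no filter on low values (0.0883). NLS-AURKA exceeded WT-AURKA by 1.52 (SE 0.26, adjusted p = 0.00218) with library D and by 1.95 (adjusted p = 7.25e-05) without it, whereas within A to H, where library D is the one WT-AURKA library, the difference was -0.35 (adjusted p = 0.623). NES-AURKA minus WT-AURKA was 0.52 (adjusted p = 0.272) with library D and 0.94 (adjusted p = 0.00776) without it. These reads do not tell cDNA from endogenous transcript.

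The genes next to KISS1 did not share its range. GOLT1A, a Golgi transport gene immediately next to it, reached at most 0.0722 RPKM in any library. LINC00628, a long non-coding neighbour, reached at most 0.508 RPKM. Of 10 neighbours, 5 on either side in the RefSeq gene order, 6 had a row and SOX13, ETNK2 and PLEKHA6 passed the filter; LINC00303, ERLNC1, LOC100420418 and RPL21P19 were not analysed here. ETNK2, an ethanolamine kinase 3 places away, was 3.72 ± 0.24 RPKM in NLS-AURKA, 1.61 ± 1.12 RPKM in NES-AURKA, 1.76 ± 0.09 RPKM in WT-AURKA and 2.19 ± 0.31 RPKM in control lines. It rose by 0.91 (SE 0.24, limma adjusted p = 0.0165) in NLS-AURKA against NES-AURKA, which lost its call without either NLS-AURKA line (adjusted p up to 0.0946) and within A to H (0.0922). Its AURKA minus control difference was 0.01 (adjusted p = 0.990). In NLS-AURKA against WT-AURKA ETNK2 rose by 0.76 (limma adjusted p = 0.0321), lost in 7 of 35 fits without 1 line or library. That call was also lost with the pseudocount of 0.1 and with no filter. Over all genes 33.2% were called in NLS-AURKA against NES-AURKA and 36.1% in NLS-AURKA against WT-AURKA. SOX13, a SOX family transcription factor, was higher by 0.47 (adjusted p = 0.0405) in the same NLS-AURKA against NES-AURKA contrast, a call lost in 19 of 35 fits that left out 1 line or 1 library. The SOX13 call was also lost within I to Z (limma adjusted p = 0.0745), within A to H (0.108), with no filter and with median-ratio scaling. In NLS-AURKA against WT-AURKA SOX13 rose by 0.46 (adjusted p = 0.0424), lost in 18 of 35 such fits, within I to Z and with no filter. PLEKHA6, a pleckstrin homology domain gene, differed by 0.55 in NLS-AURKA against NES-AURKA (limma adjusted p = 0.0789) and was not called. It was not called either with the pseudocount of 0.1 (0.0685), with no filter (0.243) or with median-ratio scaling (0.09996). Within A to H it differed by 0.16. It was called within I to Z, at 0.75 (adjusted p = 0.0155), and in a fit of all libraries, at 0.55 (adjusted p = 0.00364). The latter fit had the letter set as a term and line as a random block. It takes single libraries, whose spread within a line may be technical.

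The receptor was close to absent. KISS1R had no reads in 20 of 26 libraries and at most 0.0633 RPKM, which amounts to 1 or 2 estimated reads in the other 6. A count of 0 allows up to 0.0908 to 0.151 RPKM in those 20 libraries, taking 3 reads as the limit. KISS1R was thus not detectable as a difference between groups at this depth, although the libraries spanned 0.277 to 411 RPKM of its ligand. Of 11 RFamide peptide and related receptor genes, 6 had a row and none passed the filter. QRFP, another RFamide peptide, reached at most 0.417 RPKM and GALR2, a galanin receptor from the same receptor class, at most 0.136 RPKM.

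Genes that act downstream of a Gq-coupled receptor were expressed without it. Of 25 in that list, receptor included, 21 were tested, and calls below are limma calls at an adjusted p under 0.05 over all tested genes. AURKA lines against control lines called 19.2% of all genes (8.85% higher, 10.4% lower), and of the 21 genes 1 rose and 3 fell, with a median log2 difference of -0.11 against -0.02 over all genes. ITPR2, an inositol trisphosphate receptor that releases stored calcium, rose by 0.60 (SE 0.10, adjusted p = 0.00335). PRKCZ, an atypical protein kinase C, fell to 3.0 ± 0.72 RPKM in AURKA lines, against 8.73 ± 1.64 RPKM in control lines (adjusted p = 0.000871). ARRB2, the arrestin that uncouples and internalises such receptors, fell to 3.18 ± 1.25 RPKM in AURKA lines, against 8.15 ± 0.63 RPKM in control lines (adjusted p = 0.00498), and the receptor kinase GRK6 fell by 0.64 (adjusted p = 0.00765).

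In NLS-AURKA against either other AURKA construct the same list held more calls, as did all genes. NLS-AURKA against NES-AURKA called 33.2% of all genes (19.1% higher, 14.1% lower), and 6 of the 21 rose and 2 fell (median 0.14, against 0.05 over all genes). RGS4, which speeds the shut-off of Gq, was 4.25 ± 0.80 RPKM in NLS-AURKA, 0.508 ± 0.13 RPKM in NES-AURKA, 0.964 ± 0.18 RPKM in WT-AURKA and 0.469 ± 0.23 RPKM in control lines. RGS4 rose by 1.79 (SE 0.15, adjusted p = 0.000105) in NLS-AURKA against NES-AURKA and by 1.38 (adjusted p = 0.00028) against WT-AURKA; within A to H these were not called (adjusted p = 0.0511 and 0.188). ITPR3, the third inositol trisphosphate receptor, rose by 0.84 (adjusted p = 0.000684) against NES-AURKA, while its mean of 41.8 ± 1.58 RPKM in NLS-AURKA stood beside 50.6 ± 5.08 RPKM in control lines. Both ITPR3 means lay above every I to Z library, at most 29.9 RPKM, and A to H libraries reached 115 RPKM. ARRB2 rose by 0.77 (adjusted p = 0.00553), a call lost without NLS-AURKA c2 (0.0517), and PRKCE, a calcium-independent protein kinase C, rose by 0.81 (adjusted p = 0.0107), lost without NLS-AURKA c3 or library A (up to 0.122) and in I to Z (0.118).

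NLS-AURKA against WT-AURKA called 36.1% of all genes (18.7% higher, 17.4% lower), and in the Gq list 8 rose and 3 fell (median 0.25, against 0.01 over all genes). RGS2, a second inhibitor of Gq, rose by 0.66 (adjusted p = 0.00215) and was not called within A to H (0.540). ITPR3 rose by 0.82 (adjusted p = 0.000673) and was likewise not called within A to H (0.101). ARRB1, the other arrestin of this kind, fell by 1.14 (adjusted p = 0.00831) in NLS-AURKA against WT-AURKA. The call was lost without NLS-AURKA c3 or WT-AURKA c2, within A to H and with no filter. NES-AURKA against WT-AURKA called 4.87% of all genes (1.56% higher, 3.3% lower), 613 genes against 2705 without library D, and ARRB1 alone of this list, which fell by 1.18 (adjusted p = 0.0371), lost in 17 of 35 fits that left out 1 line or 1 library. That ARRB1 call was also lost within A to H and with no filter.

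Precursor processing genes that were called in AURKA lines against control lines fell. Of 12 in the list, 11 had a row and 8 were tested. Of these, 4 fell and 0 rose in that contrast, where 10.4% of all genes fell and 8.85% rose (median -0.35, against -0.02 over all genes). The tested genes without a call differed by 0.71 (CPE), 0.42 (SCG5), 0.16 (PCSK7) and -0.14 (PCSK1N). PCSK6, a proprotein convertase of the secretory pathway, was 0.0914 ± 0.196 RPKM in AURKA lines and 2.14 ± 0.178 RPKM in control lines, a fall of 1.51 on the log2(RPKM + 1) scale (SE 0.13, adjusted p = 9.67e-05). FURIN, the convertase that cuts many secreted precursors, was 7.28 ± 0.80 RPKM in AURKA lines and 11.2 ± 0.67 RPKM in control lines (log2 difference -0.55, adjusted p = 0.00537, and 0.0552 within I to Z). PAM, the enzyme that amidates peptide ends, fell by 0.57 (adjusted p = 0.0140), a call lost without any one control line (up to 0.0701) and in A to H (0.0646). CPD, a carboxypeptidase that trims cut ends, was 33.4 ± 12.4 RPKM in AURKA lines and 60.2 ± 7.63 RPKM in control lines (adjusted p = 0.0425, lost in 17 of 35 fits that left out 1 line or 1 library and with a letter-set term, at 0.0995). The CPD call was also lost within I to Z, within A to H and with no filter. No I to Z library held more than 39.5 RPKM of CPD, so its control mean rests on the A to H libraries. Those reached 129 RPKM over all lines.

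PAM was the gene of this list that rose with the nuclear construct. It was 16.8 ± 0.30 RPKM in NLS-AURKA, 12.5 ± 0.05 RPKM in NES-AURKA and 12.2 ± 0.86 RPKM in WT-AURKA, against 20.9 ± 0.76 RPKM in control lines. PAM rose by 0.40 (SE 0.08, adjusted p = 0.0068) against NES-AURKA and by 0.43 (adjusted p = 0.00434) against WT-AURKA, neither called within A to H (0.111 and 0.543). Against WT-AURKA, CPE, the carboxypeptidase of secretory granules, fell by 1.30 (adjusted p = 0.0346, lost in 10 of 35 fits that left out 1 line or 1 library), and PCSK1N, an inhibitor of the convertase PCSK1, fell by 0.57 (adjusted p = 0.0219, lost in 6 of 35). CPE was also not called within A to H, PCSK1N not within I to Z, and neither with no filter. CPE was 2.57 RPKM in NLS-AURKA and 7.71 RPKM in WT-AURKA, against 2.27 RPKM in control lines. PCSK1 itself, a granule convertase, reached at most 0.0504 RPKM.

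**Figure D4:**
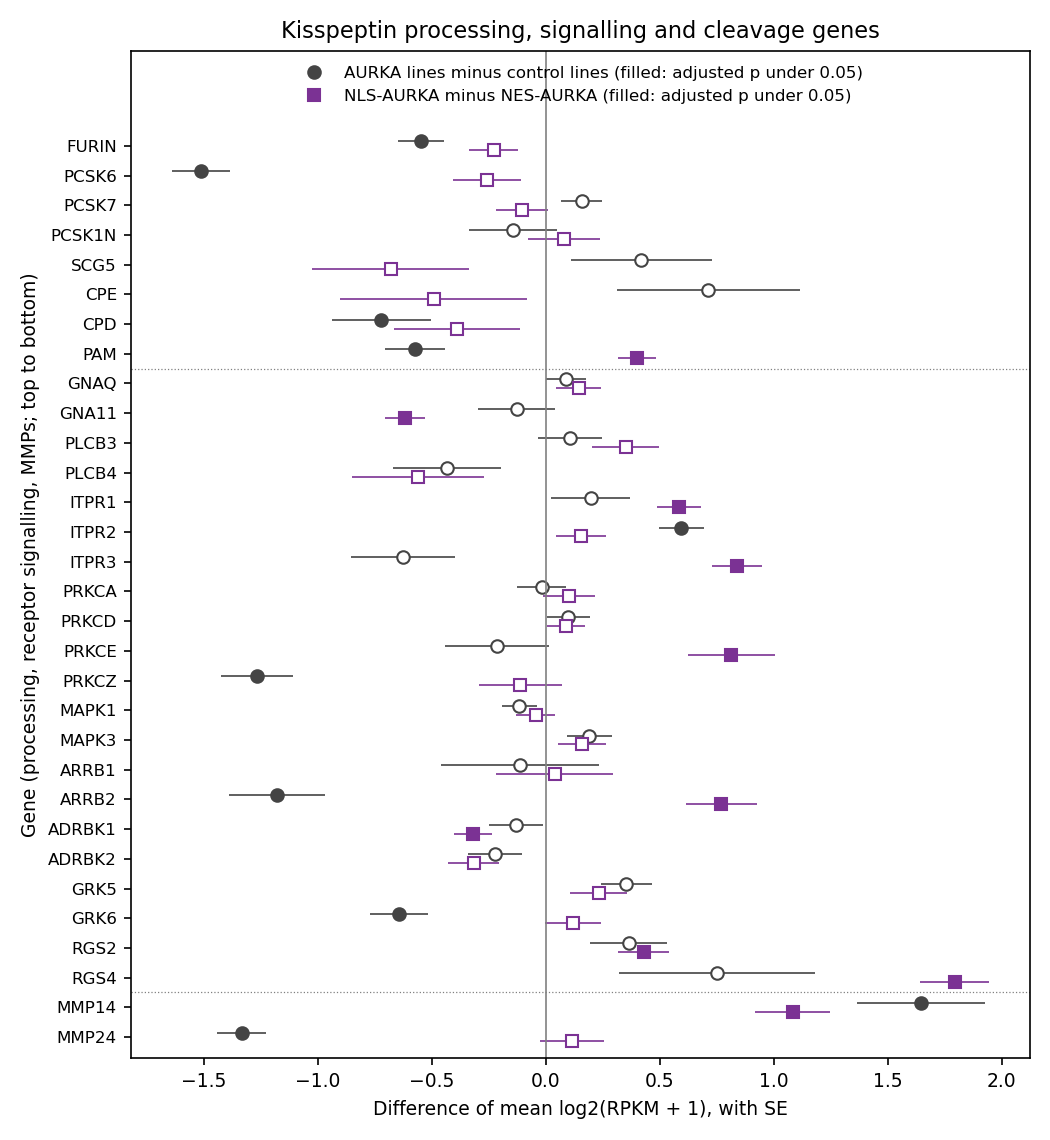
Differences of mean log2(RPKM + 1) with SE for the 31 tested genes of the processing, receptor signalling and metalloproteinase lists, from top to bottom. Circles are AURKA lines minus control lines, squares NLS-AURKA minus NES-AURKA, filled where the limma adjusted p was under 0.05; MMP14 is the gene in which both differences are positive and filled, at 1.65 and 1.08.

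Of 5 metalloproteinases described to cut kisspeptin, MMP14 and MMP24 passed the filter and were called in AURKA lines against control lines, in opposite directions. Over all genes 19.2% were called in that contrast. MMP14, a membrane-anchored collagenase activator, was 115 ± 9.65 RPKM in NLS-AURKA, 54.0 ± 13.9 RPKM in NES-AURKA and 62.9 ± 7.38 RPKM in WT-AURKA, against 22.9 ± 1.32 RPKM in control lines. It rose by 1.65 (SE 0.28, adjusted p = 0.00396) in AURKA lines against control lines and by 1.08 (SE 0.16, adjusted p = 0.00139) in NLS-AURKA against NES-AURKA. Against WT-AURKA it rose by 0.87 in NLS-AURKA (adjusted p = 0.00362, and 0.213 within A to H). MMP24, another membrane-anchored member, fell to 0.265 ± 0.0931 RPKM in AURKA lines, against 2.27 ± 0.434 RPKM in control lines (log2 difference -1.33, adjusted p = 8.91e-05). MMP2, MMP9 and MMP16 reached at most 0.144, 0.572 and 1.05 RPKM.

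Of the described regulators of KISS1 transcription, those called in AURKA lines against control lines all fell. Of 18 in the list, 17 had a row and 15 were tested. In AURKA lines against control lines 0 rose and 4 fell, where 8.85% of all genes rose and 10.4% fell, at a median of -0.00 against -0.02 over all genes. NKX2-1, a transcription factor that acts on the gene in the hypothalamus, was 0.226 ± 0.241 RPKM in AURKA lines and 2.20 ± 0.491 RPKM in control lines (log2 difference -1.39, adjusted p = 0.000351). HIF1A, the oxygen-regulated factor, fell by 0.70 (adjusted p = 0.0126), lost without NES-Empty or NLS-Empty (up to 0.0731) and in I to Z (0.0519). SIRT1, a deacetylase reported at the gene in the hypothalamus, fell by 0.47 (adjusted p = 0.0358, lost in 7 of 35 fits that left out 1 line or 1 library), and GATA2, a GATA factor, fell by 0.41 (adjusted p = 0.0245, lost in 5 of 35 and with a letter-set term, at 0.0910). SIRT1 and GATA2 were also not called within A to H or with no filter. SP1, at 15.3 ± 1.74 RPKM in AURKA lines and 13.7 ± 0.818 RPKM in control lines, did not pass (adjusted p = 0.364). TXNIP differed by -0.17 (adjusted p = 0.803), but within I to Z it fell by 1.02 (adjusted p = 0.00449), against a difference of 0.96 within A to H (adjusted p = 0.423).

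In NLS-AURKA against NES-AURKA 3 of these regulators rose and 2 fell, where 19.1% of all genes rose and 14.1% fell (median -0.17, against 0.05). TFAP2A, which encodes AP-2 alpha, was 0.953 ± 0.0186 RPKM in NLS-AURKA, 0.309 ± 0.00167 RPKM in NES-AURKA and 0.294 ± 0.105 RPKM in WT-AURKA, against 0.465 ± 0.0466 RPKM in control lines. It rose by 0.55 (SE 0.09, adjusted p = 0.00235) against NES-AURKA and by 0.56 (adjusted p = 0.0018) against WT-AURKA, the second not called within A to H (0.0540). ARNT, the partner of HIF1A, rose by 0.73 (adjusted p = 0.000568) in NLS-AURKA against NES-AURKA, while HIF1A fell by 0.53 (adjusted p = 0.00683), lost without NLS-AURKA c2 (0.0588) and in A to H (0.471). Against WT-AURKA 2 rose and 3 fell, where 18.7% of all genes rose and 17.4% fell (median -0.22, against 0.01). Among these TXNIP fell by 1.35 (adjusted p = 0.0317), a call lost in 15 of 35 fits that left out 1 line or 1 library and in A to H (0.481); with a letter-set term its difference was -0.75 (adjusted p = 0.214). ARNT rose by 0.29 (adjusted p = 0.0345, lost in 13 of 35 and with a letter-set term, at 0.0596) and HIF1A fell by 0.46 (adjusted p = 0.0119, lost in 4 of 35). Neither was called within A to H, and ARNT was also lost within I to Z and with no filter. MED23 also fell in NLS-AURKA against WT-AURKA, by 0.29 (limma adjusted p = 0.0331), and its alternatives are not given here. It was 3.71 RPKM in NLS-AURKA and 4.71 RPKM in WT-AURKA, against 3.12 RPKM in control lines. SIRT1 rose by 0.40 in NLS-AURKA against NES-AURKA (adjusted p = 0.0453, lost in 24 of 35). In NES-AURKA against WT-AURKA ARNT alone of this list was called, and fell by 0.44 (adjusted p = 0.0322, lost in 16 of 35). Both of these calls were also lost within A to H, with no filter and with median-ratio scaling, and that of SIRT1 within I to Z too.

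KISS1 is grouped with other metastasis suppressor genes, and these did not move with it as a list. Of 26 genes, 25 had a row and 23 were tested. In AURKA lines against control lines 4 rose and 2 fell, where 8.85% of all genes rose and 10.4% fell (median -0.01, against -0.02 over all genes). ARHGDIB, an inhibitor of small GTPases, was 104 ± 24.9 RPKM in AURKA lines and 35.1 ± 0.883 RPKM in control lines (log2 difference 1.57, adjusted p = 0.00094). CD82, a tetraspanin, was 14.8 ± 4.61 RPKM in AURKA lines and 4.60 ± 1.48 RPKM in control lines (1.47, adjusted p = 0.00622, and 0.102 within A to H). AKAP12, a kinase scaffold, rose by 1.25 (adjusted p = 0.0391, lost in 10 of 35 fits that left out 1 line or 1 library, within A to H and with no filter). CDH1, the epithelial cadherin, was 0.104 ± 0.0974 RPKM in AURKA lines and 3.64 ± 2.30 RPKM in control lines (-1.49, adjusted p = 0.000871). Its control mean lay above every I to Z library, at most 1.50 RPKM, and A to H libraries reached 15.5 RPKM.

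Between NLS-AURKA and NES-AURKA, 4 of these genes rose and 4 fell, where 19.1% of all genes rose and 14.1% fell (median -0.04, against 0.05), and DLC1 ran against KISS1. DLC1, a GTPase-activating protein, was 0.847 ± 0.0036 RPKM in NLS-AURKA, 11.0 ± 1.42 RPKM in NES-AURKA and 12.2 ± 0.0717 RPKM in WT-AURKA, against 16.6 ± 0.613 RPKM in control lines. It fell by 2.73 (SE 0.10, adjusted p = 1.41e-06) in NLS-AURKA against NES-AURKA and its log2 difference was -2.87 (adjusted p = 1.04e-06) against WT-AURKA, called in every alternative run for those contrasts. ARHGDIB fell by 0.79 (adjusted p = 0.00119, and 0.116 within A to H) and AKAP12 fell by 1.15 (adjusted p = 0.0490, lost in 21 of 35 fits that left out 1 line or 1 library, within A to H and with no filter). TIMP3, a metalloproteinase inhibitor, rose by 1.09 (adjusted p = 0.0232), lost without either NLS-AURKA line and in A to H (0.256). AKAP12 was 2.29 RPKM in NLS-AURKA and 9.87 ± 9.51 RPKM in NES-AURKA, against 0.869 RPKM in control lines. ARHGDIB was 76.9 RPKM in NLS-AURKA and 132 RPKM in NES-AURKA, against 35.1 RPKM in control lines. Both thus stayed above control lines in NLS-AURKA. Against WT-AURKA 1 rose and 6 fell, where 18.7% of all genes rose and 17.4% fell (median -0.09, against 0.01). CADM1, an adhesion molecule, fell by 1.71 (adjusted p = 0.00634), lost without WT-AURKA c2 (0.0525), and CDH11, a mesenchymal cadherin, fell by 0.92 (adjusted p = 0.00223, and 0.101 within A to H). CADM1 was 0.490 RPKM in NLS-AURKA and 3.87 RPKM in WT-AURKA, against 0.137 RPKM in control lines, so NLS-AURKA was not below control lines. TXNIP, also on this list, is given above. None of the suppressor, processing or metalloproteinase genes was called in NES-AURKA against WT-AURKA, where 4.87% of all genes were. The medians were -0.11, -0.02 and -0.10, against -0.03 over all genes.

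Placental genes, set beside KISS1 because syncytiotrophoblast makes much of it, went in both directions. Of 28 in the list, 22 had a row and 8 were tested. In AURKA lines against control lines 2 rose and 3 fell, where 8.85% of all genes rose and 10.4% fell (median 0.19, against -0.02). The pregnancy-specific glycoprotein genes ran against KISS1. PSG9 was 0.253 ± 0.117 RPKM in AURKA lines and 25.9 ± 3.22 RPKM in control lines (log2 difference -4.04, adjusted p = 1.79e-08), PSG5 fell by 2.73 (adjusted p = 6.64e-06) and PSG1 fell by 2.13 (adjusted p = 1.16e-05). These near-identical paralogs can share reads, so their split is uncertain. TFPI2, a protease inhibitor, was 18.9 ± 2.94 RPKM in AURKA lines and 6.35 ± 1.19 RPKM in control lines (log2 difference 1.5, adjusted p = 0.000253).

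In NLS-AURKA against NES-AURKA 2 placental genes rose and 2 fell, where 19.1% of all genes rose and 14.1% fell (median -0.06, against 0.05). PAPPA2, a protease of growth factor binding proteins, fell by 1.37 (adjusted p = 0.00131) and PGF, placental growth factor, fell by 1.10 (adjusted p = 0.00319), neither called within A to H (0.0890 and 0.452). PAPPA2 was 0.168 RPKM in NLS-AURKA, 2.22 in NES-AURKA and 4.49 in WT-AURKA, against 0.289 RPKM in control lines. PGF was 0.383 RPKM in NLS-AURKA, 2.10 in NES-AURKA and 2.54 in WT-AURKA, against 0.357 RPKM in control lines. In NLS-AURKA both were thus near the level of control lines, and the other AURKA clones were higher. TEAD3, a TEAD transcription factor, rose by 0.53 (adjusted p = 0.00586), lost without NLS-AURKA c2 (0.0533). Against WT-AURKA 2 rose and 2 fell, where 18.7% of all genes rose and 17.4% fell (median -0.02, against 0.01). There PAPPA2 fell by 2.19 (adjusted p = 0.00013) and PGF fell by 1.33 (adjusted p = 0.00106), again not called within A to H. TEAD3 rose by 0.63 (adjusted p = 0.00242, not called within A to H) and TFPI2 by 0.43 (adjusted p = 0.0432, lost in 19 of 35 fits that left out 1 line or 1 library and with a letter-set term, at 0.164). TFPI2 also lost its call with the pseudocount of 0.1, with no filter, within I to Z and within A to H. PAPPA, a related protease, rose by 0.38 (adjusted p = 0.0195, lost in 7 of 35) in NLS-AURKA against NES-AURKA and fell by 0.59 (adjusted p = 0.0194, lost in 6 of 35) in NES-AURKA against WT-AURKA, the one placental gene called there. Neither PAPPA call held within A to H.

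Markers of other cell types were low, apart from KDR. Among syncytiotrophoblast markers CGB5 reached at most 1.2 RPKM and ERVW-1 at most 0.0450 RPKM, and CGA and CSH1 were not analysed here. Hypothalamic GNRH1, TAC3 and PDYN reached at most 0.462, 0.0425 and 0.0217 RPKM. Leukocyte PTPRC reached at most 0.128 RPKM, CD3E 0.0252 RPKM and CD14 1.10 RPKM. Endothelial CDH5 and VWF reached at most 0.112 and 0.0515 RPKM and PECAM1 1.23 RPKM, while KDR, a receptor for vascular endothelial growth factor, was 3.32 ± 0.126 RPKM in NLS-AURKA and 0.249 ± 0.0787 RPKM in NES-AURKA (limma adjusted p = 1.71e-05). Markers listed for MDA-MB-231 went with their list only in part. The marker lists were drawn up for this report and are not from the labels. Nothing on the identity of the cells is therefore read from them. Those listed as high were VIM at 234 to 1059 RPKM, CD44 at 32.2 to 69.4 RPKM, EGFR at 22.2 to 70.7 RPKM and AXL at 133 to 532 RPKM. Of those listed as low, ESR1 was at most 0.0220 RPKM and PGR at most 0.0120 RPKM. KRT18 and KRT19, which had been placed on the low list, were not low, at 65.3 to 222 and 73.9 to 220.2 RPKM. EPCAM, on the same list, ran from 1.44 to 15.3 RPKM.

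The genes whose pattern was most like KISS1 were sought among 1732 tested genes with a line mean of at least 5 RPKM and a range of line means of at least 1 on the log2 scale. Pearson's r of mean log2(RPKM + 1) over 9 line means was 0.982 for ROBO1, an axon guidance receptor, 0.977 for CBR3, a carbonyl reductase, and 0.977 for WFS1, an endoplasmic reticulum membrane protein. It was 0.974 for MMP14 and 0.973 for FAT3, an atypical cadherin. The 9 points share letter sets and passages, and control lines form a cluster at the low end, so r is a description. ROBO1 was 5.47 ± 0.42 RPKM in NLS-AURKA, 1.92 ± 0.89 RPKM in NES-AURKA and 1.97 ± 0.17 RPKM in WT-AURKA, against 0.0788 ± 0.021 RPKM in control lines. FAT3 was 6.62 ± 0.874 RPKM in NLS-AURKA, 1.36 ± 1.67 RPKM in NES-AURKA and 2.12 ± 0.100 RPKM in WT-AURKA, against 0.117 ± 0.0315 RPKM in control lines.

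The most opposite patterns were those of PMP22, a myelin and epithelial membrane protein, at -0.985, TTPAL, a lipid-binding protein gene, at -0.978, TRMT6, a tRNA methyltransferase subunit, at -0.974, S100P, a calcium-binding protein, at -0.970, and RAD50, a DNA repair subunit, at -0.969. PMP22 was 14.9 ± 0.067 RPKM in NLS-AURKA, 28.5 ± 9.03 RPKM in NES-AURKA and 26.7 ± 0.151 RPKM in WT-AURKA, against 53.5 ± 0.785 RPKM in control lines. S100P was 0.875 ± 0.233 RPKM in NLS-AURKA, 31.4 ± 17.2 RPKM in NES-AURKA and 15.5 ± 1.14 RPKM in WT-AURKA, against 137 ± 9.64 RPKM in control lines. Of these 10 genes, 3 stayed among the 5 at either end with Spearman's rank correlation, 3 with single libraries and 4 within I to Z.

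**Figure D5:**
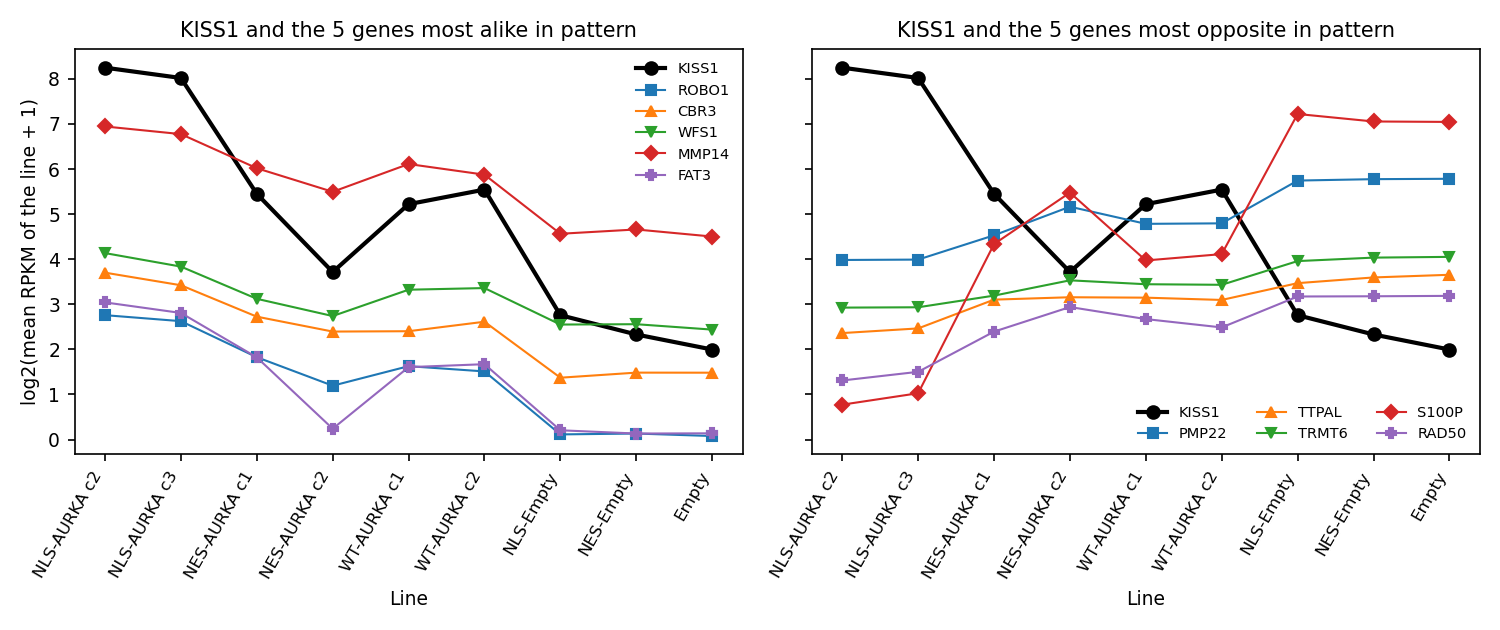
log2 of the mean RPKM of each line plus 1 for KISS1 (black) and, at left, the 5 genes most like it and, at right, the 5 most opposite, over 9 lines with AURKA clones left of control lines. ROBO1, CBR3, WFS1, MMP14 and FAT3 fall toward the control lines as KISS1 does, and PMP22, TTPAL, TRMT6, S100P and RAD50 run the other way.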

How the data were processed

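Sequencing libraries (26) were built with a KAPA mRNA Hyper Prep kit, 500 ng of RNA each, per the labels' protocols. HISAT2, SAMtools and Partek were used with hg19, per the submitters' processing notes; nothing on versions, annotation or strand setting is given in the sources used here. Per gene and library, the authors deposited an RPKM value.

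From these, log2(RPKM + 1) was averaged per line and tested with limma 3.58.1 (R 4.3.3) with a mean-variance trend, on 12589 genes with at least 1 RPKM in at least 2 libraries, with Benjamini-Hochberg adjustment over all of them. One fit had 2 arms, one had 4 groups. This scale understates changes of low genes. Means ± SD of groups are over lines and pool both letter sets, so a mean can lie above every I to Z library. No label says that the libraries of 1 line are separate cultures, so their spread may be technical.

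Depth was estimated from the value of 1 read in 2982 genes with 1 GENCODE transcript. Of each list, up to 4 called genes per contrast with the widest differences, or, with none called, the 2 of highest mean, are named; genes next to KISS1 and the 5 most and least alike are also named. Other called genes enter the counts, and of these MED23 is also given. Some genes that this rule takes are left unreported. Members and lists were chosen with earlier results of these data known. Alternatives were another pseudocount of 0.1, no filter, median-ratio scaling, each letter set, a letter-set term and leaving out 1 line or library. The limma script was tested on simulated data.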

Additional observations from a re-analysis of the deposited data

Results flagged for a closer look

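KISS1 in library D of WT-AURKA c1 was 4.18 RPKM and lay far from the other 4 WT-AURKA libraries, at 44.1 to 58.0 RPKM. It is the one A to H library of WT-AURKA. AURKA in library D was 84.1 RPKM, against 12.7 to 14.3 RPKM in those 4 libraries, and its part in the KISS1 value was not tested. The KISS1 difference between I to Z and A to H libraries in NES-AURKA c2 was -0.29 on the log2(RPKM + 1) scale, opposite in sign to the other 7 lines; this difference was not tested. The mean log2(RPKM + 1) of PCSK6 in NES-AURKA c1, 0.52, lay apart from the other 5 AURKA lines, with 0.491 RPKM against 0.00694 to 0.0145 RPKM. That of CDH1 in NES-AURKA c1, 0.35, did so too, with 0.294 RPKM against 0.0320 to 0.101 RPKM. Of 47 groups examined this way, chance alone marks about 1 in 20.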

How the results depend on the processing

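KISS1 kept its direction in all alternatives run for each comparison except NES-AURKA against WT-AURKA, where the main value of -0.59 became 1.64 in A to H, which holds 1 WT-AURKA library. Within A to H, NLS-AURKA minus WT-AURKA was 4.75 and WT-AURKA minus Empty 2.02. Leaving out 1 line or library gave 3.34 to 4.22 for AURKA against control lines, 2.75 (without NES-AURKA c2) to 4.30 (without NES-AURKA c1) for NLS-AURKA against NES-AURKA, 2.37 to 3.40 for NLS-AURKA against WT-AURKA, and -1.37 (without NES-AURKA c1) to 0.18 (without NES-AURKA c2) for NES-AURKA against WT-AURKA. It gave 2.66 to 3.91 for WT-AURKA against Empty, 1.66 to 3.21 for NES-AURKA against NES-Empty and 4.81 to 6.04 for NLS-AURKA against NLS-Empty. Genes called in A to H, with fewer libraries, numbered 1455 for AURKA against control lines (main 2423), 986 for NLS-AURKA against NES-AURKA (4180), 387 for NLS-AURKA against WT-AURKA (4547) and 0 for NES-AURKA against WT-AURKA (613; limma, with 1360 at an unadjusted p under 0.05). With a letter-set term the last was 1276; the cause was not tested. Leaving out 1 line or library gave 915 to 2669, 2250 to 5473, 2509 to 6267 and 20 to 2705 (without library D) called genes in the same order. Of the 10 genes most or least like KISS1, 3 stayed with Spearman's rank correlation, 3 with 26 libraries and 4 in I to Z. Of 2706 alternative values for 66 gene results, 2368 kept their call, 338 lost it and 0 reversed, and 20 results kept it throughout. By setting, 39 of the 66 calls were lost in A to H, 21 with no filter and 10 in I to Z. Another 3 were lost with median-ratio scaling and 2 with the pseudocount of 0.1, counted with repeats. Losses named beside single genes above are not a full list. No paired analysis was possible because the titles carry no replicate numbers shared across groups; the letter set was used as a term instead, with line as a random block, and this ended 5 of those 66 calls: CPD and GATA2 in AURKA against control lines, and TXNIP, ARNT and TFPI2 in NLS-AURKA against WT-AURKA. Depth limits KISS1 most in libraries E, C and G.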
